A study of Mus musculus with 38 samples.

Results

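Mos and the kinases that act below it in the cytostatic MAPK cascade are described here in RNA from polysomes and from the non-polysome part of the gradient, across 6 stages from the GV oocyte to the two-cell embryo in M-phase. The members were taken by symbol and are Mos, Map2k1, Map2k2, Mapk3 and Rps6ka2, which is 5 of the 23125 genes in the table. Of these, 4 were among the 7967 genes that reached the minimum level for testing, and Rps6ka2 was not. Their levels are given as FPKM, fragments per transcript length and per mapped fragments of the library, which allows levels of different genes to be set side by side.

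The cells came from ICR mice with no genetic alteration named in the labels. GV oocytes were fully grown and were kept in prophase with IBMX, and MII oocytes had matured from such oocytes in culture, without cumulus cells. Zygotes were flushed from mated females, and two-cell embryos were grown from them, so that MII oocytes and zygotes differ in how they matured as well as in fertilization, and these cannot be told apart. Zygote M and two-cell M embryos had been treated with nocodazole, which blocks spindle assembly, so that M-phase and the drug cannot be told apart either. Each gradient gave 10 fractions, the lighter 5 pooled as non-polysomes and the heavier 5 as polysomes, and each of the 12 groups had 3 libraries.

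Mos is a serine/threonine kinase made by the oocyte that phosphorylates and activates the MAPK kinases MEK1 (Map2k1) and MEK2 (Map2k2). These activate the ERK kinases, of which Mapk3 encodes ERK1, and these in turn activate the RSK kinases, of which Rps6ka2 encodes RSK3. In vertebrate eggs this cascade is known for holding the cell at metaphase II until fertilization, and Mos protein is lost after the egg is activated. Mos mRNA is a textbook case of an RNA that is stored in the growing oocyte and translated on maturation, through elements in its 3′ UTR.

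Mos lies on the minus strand at chr4:3870657-3872105 (GRCm38), as a gene of 1 exon with a 3′ UTR of 126 bases in GENCODE. The end of the UTR carries the hexamer that directs polyadenylation, and in the last 100 bases of the annotated UTRs of the members the following stretches are among those that hold the letters searched. Cytoplasmic polyadenylation elements are a known handle on when stored oocyte RNA is translated. Of the stretches shown, only that of Rps6ka2 holds the letters of such an element. Those of Mos and Map2k1 hold the general hexamer AATAAA, which most annotated UTR ends carry. The Mos UTR was not searched upstream of its last 100 bases. Capitals mark the motif.

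Mos, chr4:3870665-3870686, minus strand: ttttaggaAATAAAgttaccac

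Map2k1, chr9:64185777-64185798, minus strand: caagttaaAATAAAagggacaa

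Rps6ka2, chr17:7303293-7303314, plus strand: aacatggaTTTTATgaagtgta

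The search covered the polyadenylation hexamers AATAAA and ATTAAA, 2 forms of the cytoplasmic polyadenylation element, TTTTAT and TTTTAAT, and the Pumilio element TGTANATA, each read on the transcript strand. Among 14739 annotated UTR ends, AATAAA was present in 65.13%, ATTAAA in 20.65%, TTTTAT in 14.28%, TTTTAAT in 5.204% and TGTANATA in 4.654%. The letters of the Pumilio element were not in the last 100 bases of any of the 5 members. Those of neither cytoplasmic element were present in Mos, Map2k1, Map2k2 or Mapk3, and those of neither hexamer in Map2k2 or Mapk3. A second AATAAA lay further upstream in Map2k1, and Rps6ka2 also had 1 AATAAA upstream of the element shown. A match is a description of the annotated end only.

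Depth per library is not known, since the table holds FPKM and no counts, and FPKM gives each RNA's part of its own library, so that less of an RNA and more of all others cannot be told apart. Every library has 0.01 as its smallest value, which is taken as the floor. Polysome libraries had between 8383 and 10361 genes above 0.1 FPKM at the first 5 stages and between 6261 and 7550 in two-cell M, where non-polysome libraries had 5140 to 5889. The summed level of 8 oocyte markers (Gdf9, Bmp15, Zp1, Zp2, Zp3, Nlrp5, Oosp1 and Figla) was 1526 to 1642 FPKM in GV polysomes and 28.1 to 137 in two-cell M polysomes. For 8 markers of granulosa and cumulus cells the sum was at most 23.6 FPKM in any library, nearly all of it Inha, and Has2 and Tnfaip6 were at the floor in 35 of 36 libraries. For 4 globin genes, markers of blood, the sum was at most 1.33 FPKM up to zygote M, but 34.3 to 83.7 in two-cell polysomes, 99.7 to 162 in two-cell non-polysomes, and in two-cell M 24.4 to 42.5 in polysomes and 0.04 to 52.6 in non-polysomes, most of it Hba-a1. The part that these differences between libraries play in the results was not tested.

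Mos was among the most abundant RNAs of the oocyte and fell by stages after it. In polysomes the 3 GV libraries had 481, 837 and 478 FPKM, and the 3 MII libraries 1442, 2021 and 1926 FPKM. Zygotes had 70.6, 87.9 and 87.0 FPKM and zygote M embryos 13.2, 7.74 and 15.6 FPKM. By mean level Mos was gene 20 of 23125 in GV polysomes, gene 5 in MII, gene 190 in zygotes and gene 1004 in zygote M. Two-cell embryos had 16.0, 24.8 and 11.1 FPKM and two-cell M embryos 12.2, 0.202 and 14.7 FPKM. The order of polysome means was thus MII, GV, zygote, two-cell, zygote M and two-cell M, and MII, GV and zygote did not overlap with their neighbours in it, while the last 3 stages overlapped.

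**Figure D1:**
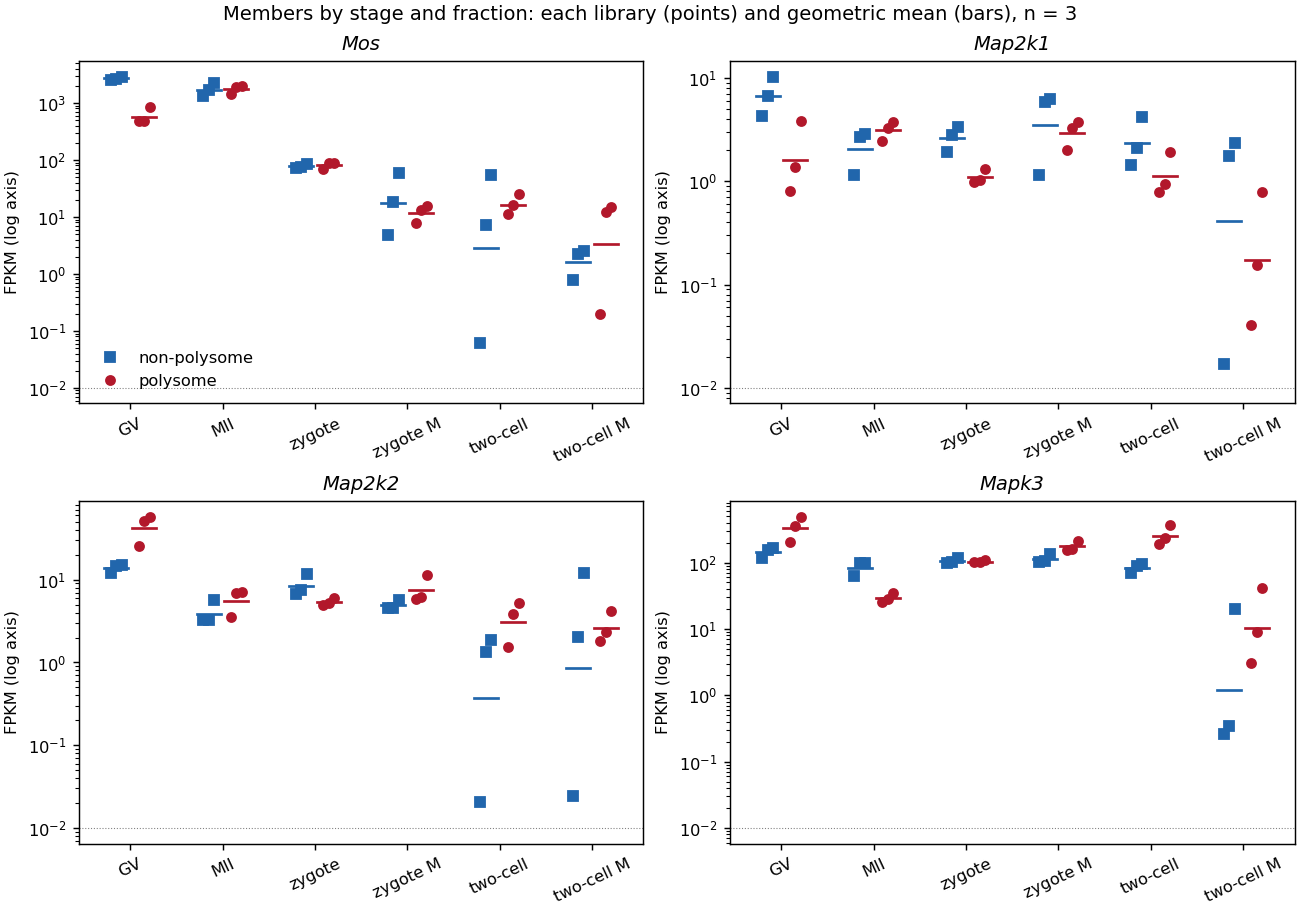
Level of Mos, Map2k1, Map2k2 and Mapk3 in each library (FPKM, log axis) by stage, with polysomes as red circles and non-polysomes as blue squares; bars are geometric means of 3 libraries and the dotted line is the floor of 0.01 FPKM. Mos stands at or above 478 FPKM in every oocyte library and at or below 87.9 FPKM in every embryo polysome library, while Mapk3 in polysomes dips to 25.3 to 34.3 FPKM in MII between higher levels in GV and zygotes.

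Changes were tested with limma on log2 FPKM over all 36 libraries, and a gene was called at a Benjamini-Hochberg adjusted p under 0.05 with a change over 2-fold. Mos was called in 3 of the 4 comparisons of oocyte with embryo polysomes. It was 35.3-fold higher in GV than in two-cell (log2 fold change 5.14, SE 1.44, adjusted p = 0.0135 by limma), where 16.7% of all genes tested were called and their median difference was 0.85. It was 152-fold higher in MII than in zygote M (7.25, SE 1.44, adjusted p = 0.000799), where 12.4% of genes were called. In MII against two-cell M the log2 difference was 9.07 (adjusted p = 9.05e-06), beside a median of 2.64 over all genes and 53.0% called. These 3 calls held when each library was left out in turn, the last with log2 differences from 7.05 to 10.15. In 1 two-cell M library Mos had 0.202 FPKM.

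Between consecutive stages Mos was not called over the 36 libraries, although its groups did not overlap in the first 3 steps. From GV to MII the log2 change in polysomes was 1.62 (SE 1.44, adjusted p = 0.628 by limma), from MII to zygote it was -4.45 (adjusted p = 0.0823), and from zygote to zygote M -2.80 (adjusted p = 0.35). The standard error, which is shared by all stages, rests largely on the later ones: the SD of log2 FPKM of Mos was 0.46 in GV, 0.26 in MII and 0.18 in zygotes, but 3.50 in two-cell M polysomes and 5.01 in two-cell non-polysomes. In those non-polysome libraries Mos had 53.8, 0.0621 and 7.12 FPKM.

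The fit was therefore repeated with the 12 libraries of both two-cell stages left out, a choice made after the values had been seen. The estimates stay as they are and the standard error of Mos became 0.54. Mos was then called in all 3 steps, with an adjusted p by limma of 0.0375 for the 3.08-fold rise from GV to MII, 7.94e-06 for the 21.8-fold fall from MII to zygote and 0.000967 for the 6.99-fold fall from zygote to zygote M. In that fit 21.4%, 13.7% and 18.2% of all genes tested were called in these comparisons, against 6.11%, 4.57% and 5.75% over all libraries. GV was also 7.09-fold above zygote (adjusted p = 0.000828), in a comparison in which 19.7% of genes were called.

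The higher level of Mos in MII than in GV was seen in polysomes and not in the other fraction. Non-polysomes of GV oocytes had 2895, 2661 and 2571 FPKM of Mos and those of MII oocytes 1333, 1672 and 2279 FPKM. Every GV non-polysome library thus had a higher FPKM of Mos than any GV polysome library, while the fractions overlapped in MII. Since FPKM is relative to each library, the amounts of Mos RNA in the 2 fractions are not known. In GV the level in polysomes was 4.68-fold below that in non-polysomes (log2 difference -2.23, SE 1.44, adjusted p = 0.409 by limma, with 4.96% of genes called). Without the two-cell stages it was called (adjusted p = 0.00602, with 23.0% of genes called).

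In non-polysomes Mos changed by -0.65 on the log2 scale from GV to MII (adjusted p = 0.805 by limma, with 16.6% of genes called). The difference between the 2 changes, 1.62 in polysomes and -0.65 in non-polysomes, was 2.28 (SE 2.04, adjusted p = 0.897, with 0.163% of genes called). It was not called without the two-cell stages either (SE 0.77, adjusted p = 0.0882, 5.46% called), and it was called when only the 12 libraries of these groups entered the fit (SE 0.38, adjusted p = 0.015, 2.17% called). Over all genes the median of this difference was -0.59, which lies on the other side of 0 from that of Mos.

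In zygotes the levels of Mos in both fractions were close. Zygotes had 76.2, 71.9 and 84.1 FPKM in non-polysomes, a range that overlaps their polysomes, and the difference between zygote and MII was -4.48 there and -4.45 in polysomes on the log2 scale. Over the 36 libraries the difference in non-polysomes had an adjusted p of 0.0972 by limma (3.28% of genes called), and without the two-cell stages 2.45e-05 (9.99% called). Zygote M non-polysomes had 18.3, 59.0 and 4.76 FPKM, and two-cell M non-polysomes 2.21, 2.53 and 0.775 FPKM. Both ranges overlap with the polysome values of their stage, as do those of two-cell non-polysomes, and all 3 are wide.

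Map2k1, which encodes MEK1, lies on the minus strand at chr9:64185770-64253631 (GRCm38) and overlaps Uchl4, Gm48855 and Gm24106 on the opposite strand; the kit is not stated to mark strand, so reads there could come from either. It was a low RNA in all libraries, between 0.0169 and 10.3 FPKM. Polysomes of GV oocytes had 1.36, 0.796 and 3.81 FPKM, those of MII 3.26, 2.47 and 3.73, and those of zygotes 1.30, 0.974 and 1.04 FPKM. Zygote M polysomes had 3.28, 2.00 and 3.75 FPKM, two-cell polysomes 1.91, 0.783 and 0.948, and two-cell M polysomes 0.794, 0.0407 and 0.155 FPKM. Both M-phases of the first cycles, MII and zygote M, stood above zygotes with no overlap, while GV overlapped with every stage but two-cell M.

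The difference of Map2k1 in polysomes between zygote and MII was -1.51 on the log2 scale (SE 1.20, adjusted p = 0.833 by limma) and that between zygote M and zygote 1.41 (adjusted p = 0.703). Neither was called, nor was either without the two-cell stages (SE 0.63, adjusted p = 0.13 and 0.136). Map2k1 was called in MII against two-cell M, with a log2 difference of 4.18 (SE 1.20, adjusted p = 0.0047) beside the median of 2.64 of all genes. It was 3.15 without two-cell M library B and 5.29 without library A, and called without each library (adjusted p up to 0.0442). With quantile normalization, which makes the distributions of all libraries equal, the call was lost (adjusted p = 0.0631). The smallest difference under any of the alternatives was 1.67.

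In non-polysomes Map2k1 was highest in GV, with 6.70, 10.3 and 4.26 FPKM, against 2.85, 2.67 and 1.15 FPKM in MII. Polysomes of GV were below non-polysomes in every library, by -2.05 on the log2 scale (SE 1.20, adjusted p = 0.357 by limma), and without the two-cell stages this was called (adjusted p = 0.0235). The change in non-polysomes from GV to MII was -1.69 (adjusted p = 0.379), and without the two-cell stages it was called (adjusted p = 0.0408, as were 2865 of the 7967 genes). In zygotes polysomes also lay below non-polysomes (3.38, 2.78 and 1.90 FPKM) without overlap. That difference of -1.25 was called in neither fit (adjusted p = 1 and 0.324), with 1.38% and 6.31% of genes called.

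Map2k2, which encodes MEK2, lies on the plus strand at chr10:81105915-81133975 and was highest in polysomes of GV oocytes. These had 57.7, 50.8 and 25.8 FPKM, and MII oocytes 7.05, 3.59 and 6.87 FPKM. Zygotes had 5.18, 4.98 and 6.09 FPKM and zygote M embryos 6.15, 11.5 and 5.87. Two-cell polysomes had 3.80, 5.18 and 1.55 FPKM and two-cell M polysomes 4.14, 2.31 and 1.82. All 3 GV libraries stood above every other polysome library, and the 5 other stages overlapped with their neighbours in the order of means.

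Map2k2 was 7.58-fold lower in polysomes of MII than of GV (log2 fold change -2.92, SE 1.38, adjusted p = 0.255 by limma over 36 libraries). Without the two-cell stages the same value was called (SE 0.37, adjusted p = 1.03e-05). GV exceeded zygote by 2.97 (adjusted p = 0.26, and 1.01e-05 without the two-cell stages, with 5.61% and 19.7% of genes called). GV exceeded two-cell by 3.76 (adjusted p = 0.0588). The standard error of Map2k2 also rests on the late stages, where non-polysomes had 1.87, 0.0208 and 1.34 FPKM in two-cell and 0.0246, 12.1 and 2.06 in two-cell M.

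Map2k2 was lower in MII than in GV in the other fraction as well. Non-polysomes had 15.1, 11.9 and 14.4 FPKM in GV and 3.22, 5.63 and 3.27 FPKM in MII, which do not overlap. The log2 change of -1.82 was not called over all libraries (SE 1.38, adjusted p = 0.41 by limma) and was called without the two-cell stages (SE 0.37, adjusted p = 0.000821), where 2865 of the 7967 genes were called. In GV the polysome level lay above the non-polysome level by 1.62 on the log2 scale (adjusted p = 0.551 over all libraries and 0.00396 without the two-cell stages), the opposite side to Mos and Map2k1. In zygotes non-polysomes had 7.55, 6.73 and 11.7 FPKM, above all 3 polysome libraries.

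Mapk3, which encodes ERK1 and lies on the plus strand at chr7:126759601-126765819, was below Mos by mean FPKM in oocytes and above it in embryos, in both fractions. In two-cell M, however, the higher mean of Mapk3 rests on library C in both fractions. Mos was the higher of the 2 in library A of the polysomes and in libraries A and B of the non-polysomes. Polysomes of GV oocytes had 489, 358 and 201 FPKM, and those of MII oocytes 34.3, 25.3 and 28.5 FPKM. Zygotes had 108, 101 and 100.04 FPKM, zygote M embryos 157, 212 and 160 FPKM, and two-cell embryos 189, 364 and 230.2 FPKM. In two-cell M the libraries had 8.89, 3.07 and 40.6 FPKM. Mapk3 thus was low in polysomes of MII and two-cell M, while GV overlapped with two-cell, and two-cell with zygote M.

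From GV to MII Mapk3 fell 11.3-fold in polysomes and was called (log2 fold change -3.49, SE 0.92, adjusted p = 0.0187 by limma), as the only one of the 4 tested members, with 6.11% of all genes called and a median change of 0.18. The call was lost without GV library A or B or MII library B or C (adjusted p up to 0.0862). Over all 6 fits that leave out 1 of these libraries, the log2 changes were from -3.85 to -3.20. Without the two-cell stages the adjusted p was 2.52e-08. Mos, in the same libraries, differed in the other direction without overlap.

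The polysome level of Mapk3 was 3.53-fold higher in zygotes than in MII (log2 difference 1.82, adjusted p = 0.448 by limma, and 5.51e-05 without the two-cell stages). From zygote to zygote M it changed by 0.76 (adjusted p = 0.839 and 0.0496), which is below the 2-fold limit in both fits. MII lay below zygote M by 2.58 on the log2 scale (-2.58, adjusted p = 0.0672), and without the two-cell stages this was called (adjusted p = 5.93e-07, with 28.5% of genes called). GV lay above zygote by 1.67 (adjusted p = 0.382 and 0.000123).

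In polysomes Mapk3 also fell from two-cell to two-cell M, 24.3-fold (-4.60 on the log2 scale, SE 0.92, adjusted p = 0.000326 by limma). It was called without each of the 6 libraries in turn, with log2 changes from -5.59 to -3.73. It was the only call among the 4 tested members in a comparison in which 36.3% of all genes were called and their median change was -1.17. Mos changed by -2.31 there (adjusted p = 0.218) and Map2k1 by -2.72 (adjusted p = 0.077), and their groups overlapped. Both values depend on two-cell M library B, which had 0.202 FPKM of Mos and 0.0407 FPKM of Map2k1. Outside the fit over all 36 libraries, Map2k1 was called without two-cell M library A (-3.82, adjusted p = 0.0241 by limma). It was also called on division by the library sum (adjusted p = 0.0459) and with polysome libraries only (0.0169).

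The M-phase change of Mapk3 in polysomes was compared between stages. The change in oocytes, -3.49, minus that in zygotes, 0.76, was -4.25 (SE 1.31, adjusted p = 0.0363 by limma), with 9.51% of all genes called. This call was lost in 11 of 12 fits that leave out 1 library (adjusted p up to 0.086), with no minimum level (0.0614) and without the trend (0.0526). The change in zygotes minus that in two-cell embryos was 5.36 (SE 1.31, adjusted p = 0.00374, with 23.7% called). The changes in oocytes and two-cell embryos differed by 1.11 (SE 1.31, adjusted p = 0.58, with 23.5% called). For Mos the oocyte change minus the zygote change was 4.43 (SE 2.04, adjusted p = 0.194 by limma), and it was not called over all libraries. That standard error rests largely on the two-cell stages, which do not enter this difference. A fit without them is not reported here for it, so whether Mos differs is left undecided. These 4 contrasts were added after the values had been seen.

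**Figure D2:**
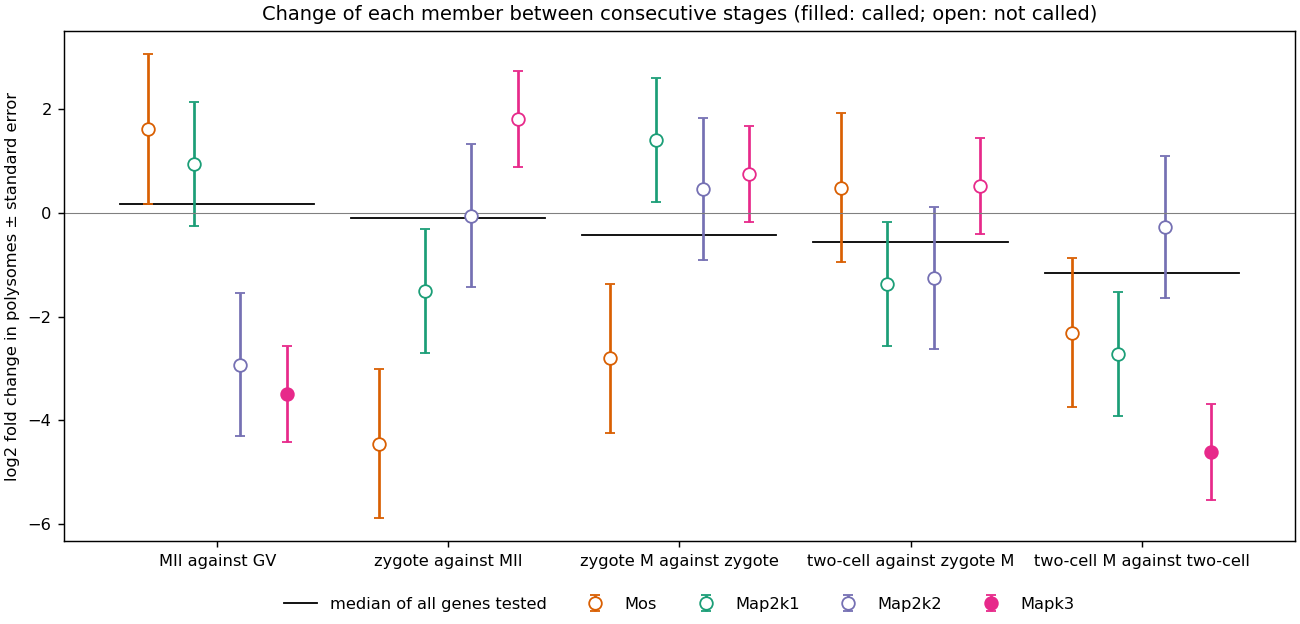
Log2 fold change in polysomes between consecutive stages for the 4 tested members (points, with standard errors from the fit over 36 libraries) and the median over all 7967 genes tested (black lines). Filled points are called, which are Mapk3 from GV to MII (-3.49) and from two-cell to two-cell M (-4.60); the 4 members spread from -3.49 to 1.62 in the step from GV to MII.

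Mapk3 in non-polysomes stayed between 61.8 and 164 FPKM up to the two-cell stage. GV had 164, 117 and 157 FPKM, MII 97.2, 97.0 and 61.8, zygotes 101, 96.8 and 116, zygote M embryos 103, 136 and 106, and two-cell embryos 87.1, 70.0 and 95.2 FPKM. Two-cell M libraries had 0.339, 0.256 and 20.3 FPKM. The change from two-cell to two-cell M was -6.11 on the log2 scale (adjusted p = 6.19e-06 by limma, with 36.1% of genes called). Without two-cell M library C it was -8.14 and without A or B -5.19 and -4.99, called each time. When only the 6 libraries of these groups entered the fit it was not called (adjusted p = 0.108).

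Mapk3 lay on different sides of its non-polysome level as the stages went on. Polysomes were above non-polysomes in GV without overlap (log2 difference 1.19, adjusted p = 0.507 by limma) and below them in MII without overlap (-1.52, adjusted p = 1, with 0.753% of genes called). Without the two-cell stages both were called (adjusted p = 0.00305 and 0.00262, with 23.0% and 3.75% of genes called). In zygotes the fractions overlapped. Polysomes were above again without overlap in zygote M (0.61, adjusted p = 0.904, with 1.92% of genes called) and in two-cell embryos (1.59, adjusted p = 0.251), with 16.1% of genes called.

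The change of Mapk3 from GV to MII was -3.49 in polysomes and -0.79 in non-polysomes, a difference of -2.71 (SE 1.31, adjusted p = 0.656 by limma). Without the two-cell stages this difference was called (SE 0.37, adjusted p = 0.000245, with 5.46% of genes called). It has the opposite sign to the difference of 2.28 for Mos. In two-cell M the difference between the fractions of Mapk3 was called at 3.10 (adjusted p = 0.022, with 14.8% of genes called), but the groups overlapped. That call was lost without polysome library C or non-polysome library A or B (adjusted p up to 0.171), and with 1 FPKM added or with the libraries of these groups only (adjusted p up to 0.561). The value was 1.98 to 2.18 without one of these 3 libraries, 3.98 without polysome library B and 5.13 without non-polysome library C.

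**Figure D3:**
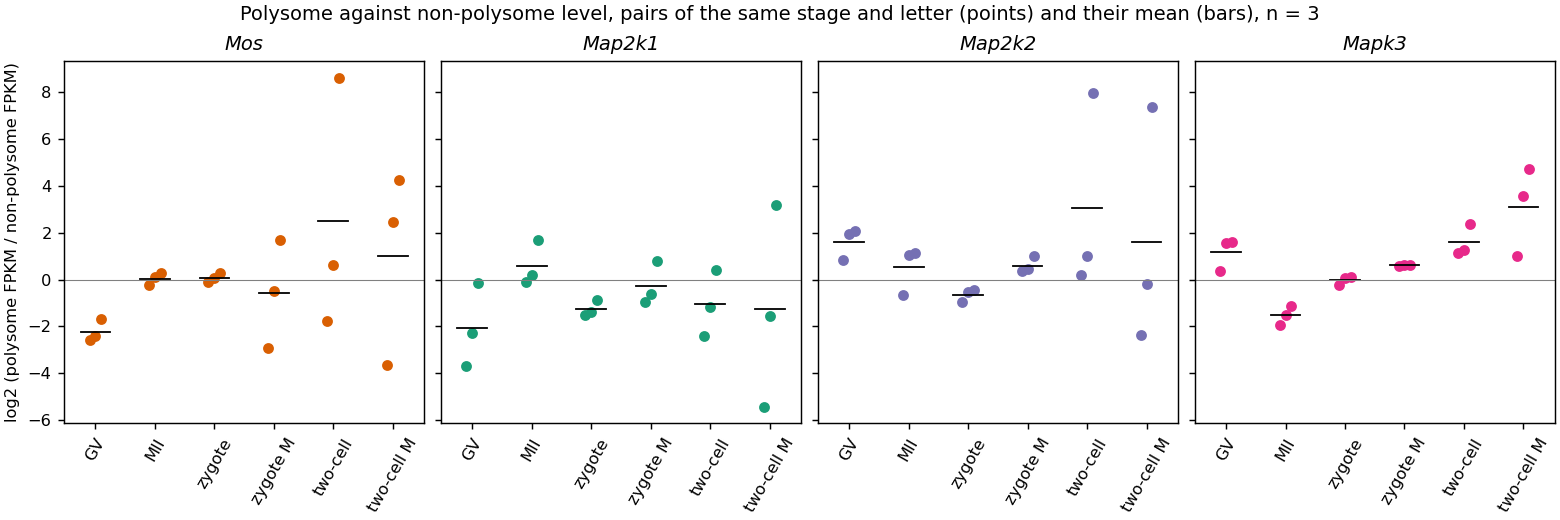
Log2 ratio of the polysome to the non-polysome FPKM of libraries with the same stage and letter (points) and their mean (bars) for the 4 tested members. Mos is below 0 in GV (-2.59 to -1.67) and near 0 in MII and zygotes, Mapk3 goes from above 0 in GV to below 0 in MII (-1.94 to -1.12), and the points spread widely at the two-cell stages.

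Rps6ka2, which encodes RSK3 and lies on the plus strand of chromosome 17, was at or near the floor at every stage. In polysomes it was at 0.01 FPKM in 7 of 18 libraries, with a median of 0.0122 and its highest value of 0.185 FPKM in 1 two-cell library. In non-polysomes it was at 0.01 FPKM in 16 of 18 libraries and at most 0.0178. It did not reach the minimum and was not tested.

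Other genes of the pathway were taken from 6 lists with 76 genes, of which 44 were tested, 31 were under the minimum and 1 had no row. In polysomes 0 of the 44 were called higher and 1 lower by limma from GV to MII, beside 3.36% and 2.75% of all genes tested. From MII to zygote 1 was called higher and 3 lower (1.03% and 3.54% of all genes), and from zygote to zygote M 1 higher and 0 lower (3.24% and 2.51%). From zygote M to two-cell 0 were called higher and 2 lower, where 3.31% and 2.87% of all genes, 6.19% in all, were called and 0 of the members. In the last step to two-cell M, 3 were called higher and 15 lower, beside 8.13% and 28.1% of all genes. The median change of the 44 genes was 0.23 in MII against GV, where that of all genes was 0.18, and -1.75 in the last step, where that of all genes was -1.17.

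Among the other kinases of the cascade, 0 of the 4 tested genes were called in polysomes by limma in any step up to the two-cell stage, where 4.57% to 6.19% of all genes were. Mknk2, which encodes a kinase that ERK activates and that phosphorylates eIF4E, was called higher from two-cell to two-cell M in polysomes. The later stage had a mean of 11.3 FPKM (SD 1.95, n = 3) against 0.678 (SD 0.65, n = 3), a log2 change of 4.67 (SE 1.54, adjusted p = 0.019 by limma). Without two-cell library A or two-cell M library A this call was lost (adjusted p up to 0.104).

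Of the 8 tested phosphatases and inhibitors, 0 were called higher and 1 lower in polysomes from GV to MII, beside 3.36% and 2.75% of all genes, and 1 higher and 1 lower from MII to zygote, beside 1.03% and 3.54%. The median change of the 8 into MII was 0.35, that of all genes 0.18. Pebp1 encodes the Raf kinase inhibitor protein. Its mean in polysomes was 70.1 FPKM in GV (SD 32.1, n = 3), 2.73 in MII (SD 0.313, n = 3) and 71.0 in zygotes (SD 21.0, n = 3). The log2 changes of -4.59 into MII and 4.66 out of it were called by limma (SE 0.38 each, adjusted p = 4.38e-09 and 3.04e-09), and each held without any 1 of the 6 libraries. Ppp2r1a, a scaffold subunit of the phosphatase PP2A that is named here after its values had been seen, went the other way without overlap. It had 3.96 to 6.33 FPKM in GV, 21.2 to 27.5 in MII and 1.83 to 2.11 in zygotes. Its change into MII of 2.25 was not called over all libraries (adjusted p = 0.133 by limma). Without the two-cell stages that change was called (SE 0.30, adjusted p = 1.56e-05 by limma, with 21.4% of genes called). In non-polysomes the mean of Ppp2r1a was 29.6 FPKM in GV and 14.9 in MII. Its fall of -3.62 in polysomes from MII to zygote was called (SE 0.86, adjusted p = 0.00879), also without any 1 of the 6 libraries.

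From two-cell to two-cell M, 4 of these 8 genes were called lower in polysomes and 0 higher, beside 28.1% and 8.13% of all genes. Spry4, an inhibitor of receptor signalling to ERK, fell from a mean of 76.4 FPKM (SD 18.4, n = 3) to 7.04 (SD 10.5, n = 3), a log2 change of -4.91 (adjusted p = 0.000193 by limma), which was -3.87 without two-cell M library A and -6.38 without library C. Spry1, of the same family, had 4.52 FPKM before this step (SD 0.949, n = 3) and was at the floor of 0.01 in all 3 two-cell M libraries (adjusted p = 3.71e-05). The other 2 were Dusp1 and Dusp7, phosphatases that act on MAP kinases, which are named to complete the count.

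From the list for metaphase II arrest and exit, Bub1b had the course most like that of Mos. It encodes the checkpoint kinase BubR1, and its mean in polysomes was 3.19 FPKM in GV (SD 0.992), 14.9 in MII (SD 6.97) and 0.497 in zygotes (SD 0.0645), each with n = 3. The fall from MII to zygote was called (log2 change -4.77, SE 1.25, adjusted p = 0.0192 by limma). It was lost in 5 of the 6 fits that leave out 1 library, the exception being the fit without MII library C (adjusted p up to 0.0932). With the replicate letter as a block the call was lost as well (adjusted p = 0.0542 by limma).

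Cdk2ap2, also known as Doc1r and as a substrate of MAPK in oocytes, is named here after its values had been seen. Its polysome mean was 589 FPKM in GV (SD 209), 335 in MII (SD 34.8), 84.3 in zygotes (SD 18.1) and 1013 in zygote M (SD 246), each with n = 3. The rise from zygote to zygote M was 3.58 on the log2 scale (SE 0.52, adjusted p = 2.09e-05 by limma) and was the only call among the 44 genes in that step, where 5.75% of all genes were called. Mos was lower in zygote M than in zygotes, without overlap between its groups.

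In the step from two-cell to two-cell M, 6 of the 9 tested genes for metaphase II arrest and exit were called lower and 0 higher, beside 28.1% and 8.13% of all genes. The median change of the 9 was -3.19 and that of all genes -1.17. Wee2, an oocyte kinase that inhibits CDK1 and is needed for exit from metaphase II, fell from 14.8 FPKM (SD 9.43, n = 3) to 1.12 (SD 1.09, n = 3), a log2 change of -4.62 (adjusted p = 6.28e-05 by limma), which was -3.08 without two-cell M library B and -5.66 without library C. Mapk1ip1, which encodes the MAPK-interacting spindle protein MISS, had means of 5.33 FPKM in zygote M, 1.04 in two-cell and the floor of 0.01 in all 3 two-cell M libraries. Its falls were called in both steps (adjusted p = 0.0189 and 0.00234). The first, -4.36 on the log2 scale, was -2.30 without two-cell library A and -6.06 without library C. The call for Wee2 was lost when only the compared libraries entered the fit (adjusted p = 0.0681). The first call for Mapk1ip1 was lost without zygote M library A or C or two-cell library A (adjusted p up to 0.198) and with the compared libraries only (0.177), and the second with 1 FPKM added or with the compared libraries only (adjusted p up to 0.152).

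Of 6 tested genes for regulation of Mos mRNA, 0 were called in polysomes before the last step, and 3 were called lower from two-cell to two-cell M, where 28.1% of all genes were. Btg4, an adaptor that brings the deadenylase complex to maternal mRNAs, fell from 6.50 FPKM (SD 0.832, n = 3) to 0.61 (SD 0.328, n = 3), a log2 change of -3.54 (adjusted p = 1.45e-05 by limma). Dazl, an RNA-binding protein that promotes translation of maternal mRNAs, fell from 1.46 to 0.0977 FPKM (adjusted p = 0.00343), a call lost with 1 FPKM added or with the compared libraries only (adjusted p up to 0.0594). Of the 9 tested genes of Ras, Raf and scaffolds and the 8 of the p38, JNK and ERK5 pathways, 0 were called in the first 4 steps, beside 4.57% to 6.19% of all genes, and 1 of each was called higher and 1 lower in the last, beside 8.13% and 28.1%.

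**Figure D4:**
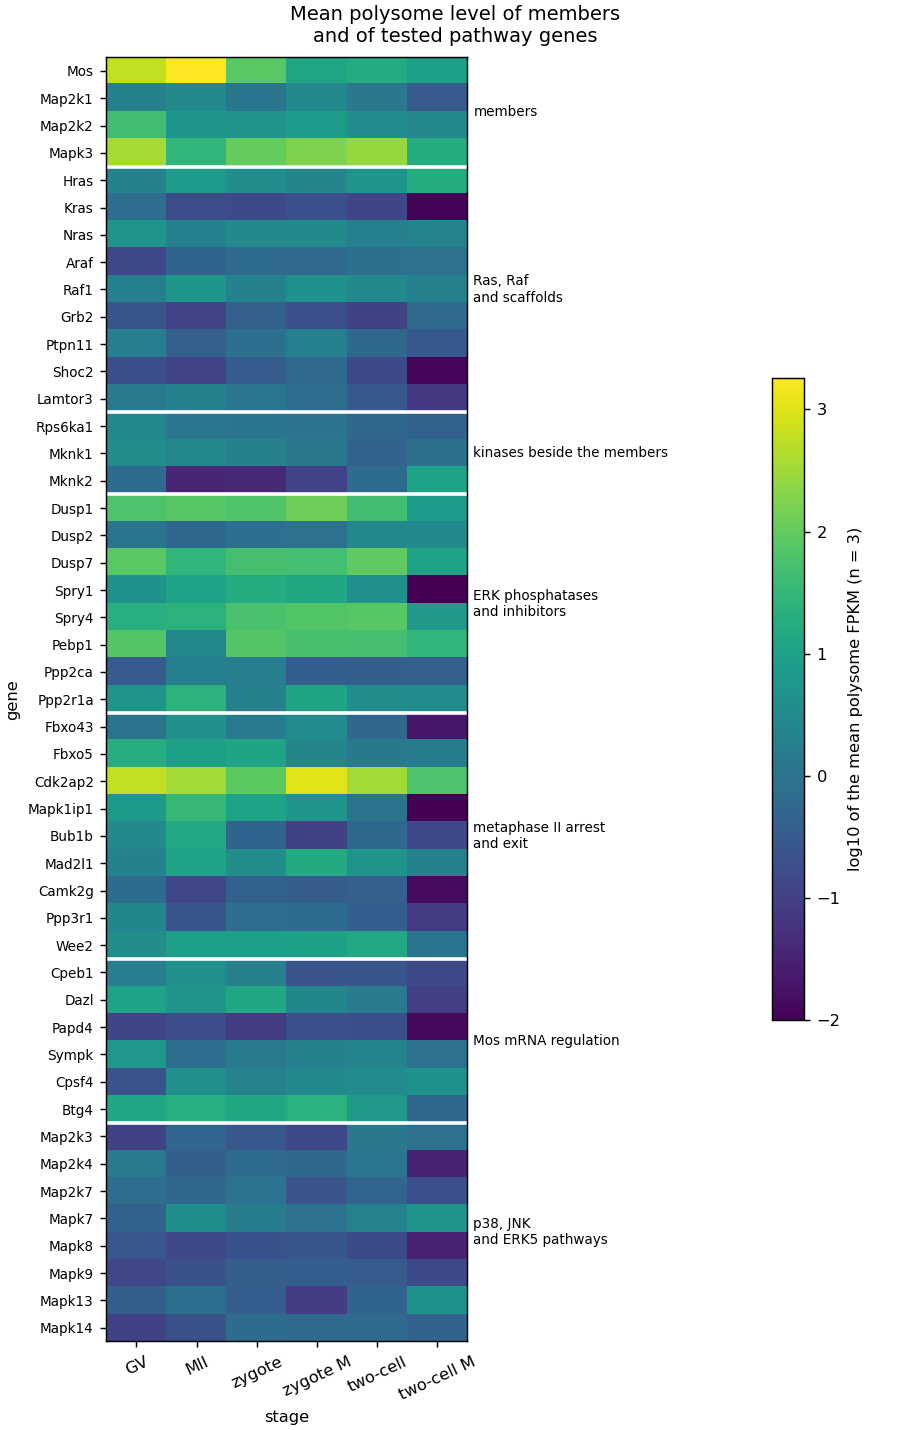
Mean level in polysomes (log10 FPKM, n = 3) of the 4 tested members and of tested pathway genes, in rows by list, over the 6 stages. Mos in MII (1796 FPKM) is the highest cell, Cdk2ap2 reaches 1013 FPKM in zygote M, Pebp1 drops to 2.73 FPKM in MII, and Spry1 and Mapk1ip1 are at the floor in two-cell M.

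The genes whose pattern was most like that of each member were found by Pearson's r over the 12 group means of log2 FPKM, among the 2285 other protein-coding genes (2286 for Map2k1) that reach 10 FPKM on average in some group. For Mos these were Rdh12 (r = 0.975), Zp3 (0.962), Bub1b (0.957), Leprot (0.948) and H1foo (0.946). Over the 36 single libraries r was lower, in the same order 0.828, 0.889, 0.796, 0.874 and 0.848. Zp3 is a protein of the zona pellucida and H1foo the linker histone of the oocyte. H1foo had polysome means of 773 FPKM in GV, 1391 in MII and 79.7 in zygotes, and non-polysome means of 2775, 1187 and 199. Like Mos it was lower in polysomes than in non-polysomes of GV by mean level, but its zygote mean was lower in polysomes than in non-polysomes, where those of Mos were close. The genes most like Map2k1 were Rhpn2 (0.963) and Bcl2l10 (0.962), for Map2k2 Psen2 and Bdkrb1 (0.929 each), and for Mapk3 AI413582 (0.97) and Scpep1 (0.962). Over the 36 libraries r was only 0.440 and 0.638 for those of Map2k1. It was 0.699 and 0.729 for those of Map2k2, and 0.881 and 0.868 for those of Mapk3. The points share libraries, and all of these genes fall at the late stages with most others.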

How the data were processed

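RNA of polysome and non-polysome fractions was sequenced from Smart-seq libraries. According to the methods and the submitters' processing notes, the authors trimmed reads with Trim Galore 0.4.1, mapped them with STAR 2.5.3a to GRCm38 and quantified genes in Partek; the deposited values are normalized FPKM for 23125 genes in 36 libraries. How normalization was done is not given in the sources used here. RefSeq is the annotation named in the methods, but the gene columns deposited with the values follow Ensembl. For 2 of 38 samples, both of zygote replicate A, the table has no column, and they were not analysed here. Libraries were grouped by stage and fraction from their titles; the replicates are biological according to the series.

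The log2 of FPKM, without an added constant, was modelled in limma 3.58.1 (R 4.3.3) as 12 group means, with empirical Bayes moderation and trend, over the 7967 genes whose geometric mean reached 0.1 FPKM. Calls needed a Benjamini-Hochberg adjusted p under 0.05 and a fold over 2, two-sided. The code was tested on simulated data. From each pathway list up to 3 genes called in a consecutive polysome step were named, by size of change, with a mean of at least 10 FPKM in one polysome group and no overlap; Cdk2ap2, Ppp2r1a, Dusp1 and Dusp7 were named outside this rule, after their values had been seen. Members and lists were chosen with earlier results of these data known. Alternatives were other offsets, minimums, normalizations, subsets of libraries, moderation settings, a replicate block and leaving out each library. The fit without two-cell stages and the differences between M-phase changes were added after the data had been seen. UTR ends come from GENCODE M21. Plcz1, Ptgs2, Ptx3, Prm1 and Tnp1 are not analysed here. One tested gene of the kinase list enters the counts and is otherwise not reported here.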

Additional observations from a re-analysis of the deposited data

Results flagged for a closer look

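The change of Mapk3 in polysomes from interphase to M-phase differed between stages, which flagged it as a difference between groups under the same contrast. On the log2 scale oocytes changed by -3.49 from GV to MII, zygotes by 0.76 and two-cell embryos by -4.60. The oocyte change minus the zygote change was -4.25 (SE 1.31, adjusted p = 0.0363 by limma), in a comparison in which 9.51% of genes were called. This call was lost in 11 of 12 fits that leave out 1 library, and without the two-cell stages it held (adjusted p = 1.21e-07, with 28.1% of genes called). The zygote change minus the two-cell change was 5.36 (SE 1.31, adjusted p = 0.00374), with 23.7% of genes called, and it held in all 12 such fits. The oocyte change minus the two-cell change was 1.11 (adjusted p = 0.58, with 23.5% of genes called). These differences share groups with each other and were chosen after the values had been seen. The M-phases of the embryos were reached with nocodazole and that of the oocyte without it, and the part of the drug was not tested.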

How the results depend on the processing

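Over all libraries 2 member calls were made between consecutive polysome stages. There were 4 with 0.1 FPKM added, 5 with 1 FPKM added, 5 with quantile normalization, 5 with polysome libraries only, 9 with the libraries of the compared groups only, and 1 to 3 without each library. With the compared groups only, 27.1%, 35.4%, 33.1%, 9.28% and 20.9% of all genes were called in the 5 steps, against 6.11%, 4.57%, 5.75%, 6.19% and 36.3%. Such shares were not counted with constants added, other minimums or normalizations, 1 fraction, a replicate block or 1 library left out. A higher count of member or pathway calls under those settings is therefore not read as a result about these genes. The 4 calls of oocyte against embryo became 7, 8, 7 and 9 with 0.1 FPKM, 1 FPKM, 1 fraction and the compared groups only, and 4 to 6 without each library. The 1 call between fractions became 3 with quantile normalization and 4 with the compared groups, and 0 to 3 without each library (0 without two-cell M polysome C or non-polysome B). The 1 call in non-polysomes became 3 with 0.1 FPKM added, 5 with 1 FPKM added, 2 with a mean of at least 1 FPKM, 5 with quantile normalization, 3 on division by the library sum, 2 with the compared groups, and 1 to 4 without each library. The 0 calls for polysome against non-polysome change by limma (Mapk3 in MII against GV had an unadjusted p of 0.0478) became 2 with the compared groups (Mos and Mapk3 in MII against GV) and 0 to 1 without each library. With the compared groups only, 0.238% to 20.1% of all genes were called between fractions and 7.08% to 22.7% between non-polysome stages. Over all libraries these shares were 0.753% to 16.1% and 3.28% to 36.1%. The 26 pathway calls became 47 with quantile normalization. Of the 59 changes followed through the alternatives, 0 turned their sign. Without the two-cell stages 21 of 30 member results were called, 18 of them not called over all libraries. These 30 are a chosen set of results, which leaves out the Mos difference of 4.43 between the M-phase changes of oocyte and zygote. In that fit 3.75% to 28.5% of all genes were called, or 2865 of 7967 in non-polysomes from GV to MII. The smaller standard errors follow from leaving out the libraries with the widest spread. Depth is unknown and its effect on low values was not tested.

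The replicate letters did not meet the criterion for pairing, that every pair correlates above 0.1. Whether polysome and non-polysome libraries of a letter come from one gradient is not given in the labels. The paper, however, pooled both parts from the fractions of each gradient and gives the letters as replicates. The fit over all libraries treats the fractions as unpaired. Pairing was not tested apart from the correlations that follow. The residuals of libraries that share a letter correlated on average by 0.0205 across polysome stages (3 of 40 pairs over 0.1), 0.0176 across non-polysome stages (2 of 40) and 0.0756 between fractions of a stage (6 of 18). With the letter as a replicate block, calls between fractions went from 1 to 2, by Mapk3 in two-cell (1.59, adjusted p = 0.0442 by limma), and the Bub1b call from MII to zygote was lost (adjusted p = 0.0542).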
